A study of Mus musculus with 6 samples.

Results

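The type I interferon genes of the mouse stand side by side on chromosome 4, and 8 of them are described here: Ifnb1, Ifna1, Ifna2, Ifna4, Ifna5, Ifna6, Ifne and Ifnz. They were chosen by name from this cluster because many Flag-Rxra peaks lie around it, so the number of those peaks is a description and supports nothing. The table of genes held 21887 protein-coding genes in all. Between the outermost interferon genes, Ifnb1 and Ifne, the cluster ran over 358 kb (mm10, the assembly GRCm38; chr4:88522025-88880201) and held 17 genes with a type I interferon symbol, the 8 members included. OG2X129 mouse embryonic fibroblasts, called a cell line in the labels, were sampled during chemical reprogramming, the conversion of body cells to pluripotency by defined compounds. The 6 samples formed 3 groups of 2: H3K27ac CUT&Tag after CD treatment, H3K27ac CUT&Tag after DMSO treatment, and Flag CUT&Tag after overexpression of Flag-tagged Rxra (Flag-Rxra-OE). CD is taken to be CD3254, the agonist of the retinoid X receptor that the series title names, and DMSO is its solvent. H3K27ac marks histones at promoters and enhancers in use, and CUT&Tag cuts out DNA where an antibody binds. The labels give neither the day of reprogramming nor whether the Flag-Rxra cells received CD, and the Flag signal comes from an overexpressed protein.

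Type I interferons are small secreted proteins that cells make when they sense viral or misplaced nucleic acid. IFN-β, encoded by Ifnb1, is the form that fibroblasts chiefly make first, after the factors IRF3 and NF-κB bind next to its start. Secreted IFN-β acts through the receptor chains Ifnar1 and Ifnar2, the kinases Jak1 and Tyk2 and factors that include Irf9, which in turn switch on antiviral genes and several Ifna genes. Ifne encodes IFN-ε, made mainly in the female reproductive tract, and Ifnz encodes a form also called limitin, which is present in the mouse as many tandem copies. RXRα, the product of Rxra, is a nuclear receptor that pairs with other nuclear receptors on repeats of the letters AGGTCA.

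Flag-Rxra peaks were listed separately for both replicates, with 28243 and 45999 peaks on chromosomes 1 to 19, X and Y. A shared peak is a replicate 1 peak that overlaps a replicate 2 peak by 1 bp or more, and there were 17623. The H3K27ac lists held 104437 broad regions after CD and 75482 after DMSO, 1 list a condition, so their values have no replicate error. Fold is the authors' enrichment of a peak over the background of their peak caller, and −log10 q is the authors' measure of its certainty. Lists were cut at a −log10 q of 5.00 for Flag-Rxra and of 1.00 for H3K27ac. No read counts were in the lists, so the depth of the libraries is unknown. Of the fibroblast markers, 4 of 8 had a CD and 3 of 8 a DMSO H3K27ac region within 1 kb of a gene end, with none at Col1a1, Col1a2, Thy1 or Postn in either list. Of 15 markers of macrophages, plasmacytoid dendritic cells and endothelial cells, 4 had one after CD and 3 after DMSO. Among all protein-coding genes 38.3% had one after CD and 35.8% after DMSO, so counts this small do not identify the cells.

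The cluster held 16 shared Flag-Rxra peaks, and 14 of them lay in a single stretch, the tandem array of Ifnz and its copies. The Ifnz array held 16 gene models, from Gm13271 to Gm13288 (chr4:88754868-88808380), of which 15 are annotated as protein-coding and Gm13284 as a pseudogene. No shared peak lay within 1 kb of an end of Ifnb1, of Ifne or of any Ifna gene. Of the 17 genes with an interferon symbol, only Ifnz had a shared peak there, and among all protein-coding genes 32.6% did. The 17 leave out the other models of the array, which carry other symbols. All of those models but Gm13271 and Gm13277 also had a shared peak within 1 kb of an end. The peaks of the array came at a steady pace: between neighbouring replicate 2 summits, 13 of 14 gaps measured 2500 to 3500 bases, with a median of 2934. The remaining gap, of 10279 bases, spanned the pseudogene Gm13284.

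Some peaks of the array lie over the starts of its gene models, and 5 promoter windows are printed here to show what those starts share (RefSeq sequences, GRCm38.p6, plus strand, 250 bases before to 50 after the annotated start). Gm13272 (chr4:88779600-88779899), Gm13290 (chr4:88773584-88773883) and Gm13286 (chr4:88757594-88757893) stand for the windows that lie under a peak. Gm13271 (chr4:88754618-88754917) is the 1 model with no peak in either replicate, and Ifnz (chr4:88781881-88782180) is the member. Capitals mark a stretch of 62 bases that Gm13272, Gm13290 and 5 other windows share letter for letter, and in Gm13286 the last 29 bases of it.
Gm13272: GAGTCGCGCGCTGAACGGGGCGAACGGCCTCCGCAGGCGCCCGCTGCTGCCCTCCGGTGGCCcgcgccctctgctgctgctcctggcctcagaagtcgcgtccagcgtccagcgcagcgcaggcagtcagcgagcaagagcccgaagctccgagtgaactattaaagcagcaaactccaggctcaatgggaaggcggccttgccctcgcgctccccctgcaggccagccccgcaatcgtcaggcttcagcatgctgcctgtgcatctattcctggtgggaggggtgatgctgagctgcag
Gm13290: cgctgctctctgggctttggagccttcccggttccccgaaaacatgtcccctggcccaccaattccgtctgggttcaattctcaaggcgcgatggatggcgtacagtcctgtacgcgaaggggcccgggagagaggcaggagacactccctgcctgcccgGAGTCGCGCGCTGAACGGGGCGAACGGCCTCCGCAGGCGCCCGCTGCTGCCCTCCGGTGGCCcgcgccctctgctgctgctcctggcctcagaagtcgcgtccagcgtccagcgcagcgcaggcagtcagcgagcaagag
Gm13286: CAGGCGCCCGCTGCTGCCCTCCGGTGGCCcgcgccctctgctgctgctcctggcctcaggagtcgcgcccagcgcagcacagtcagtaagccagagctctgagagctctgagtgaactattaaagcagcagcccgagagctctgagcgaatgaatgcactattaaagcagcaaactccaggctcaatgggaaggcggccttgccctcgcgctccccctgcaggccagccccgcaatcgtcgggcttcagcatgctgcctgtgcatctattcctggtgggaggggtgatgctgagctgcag
Gm13271: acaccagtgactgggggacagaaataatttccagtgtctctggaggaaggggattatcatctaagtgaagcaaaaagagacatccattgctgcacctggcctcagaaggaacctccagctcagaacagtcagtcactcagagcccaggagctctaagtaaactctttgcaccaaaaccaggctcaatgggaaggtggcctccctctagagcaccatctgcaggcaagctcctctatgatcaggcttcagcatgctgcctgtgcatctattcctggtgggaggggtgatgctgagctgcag
Ifnz: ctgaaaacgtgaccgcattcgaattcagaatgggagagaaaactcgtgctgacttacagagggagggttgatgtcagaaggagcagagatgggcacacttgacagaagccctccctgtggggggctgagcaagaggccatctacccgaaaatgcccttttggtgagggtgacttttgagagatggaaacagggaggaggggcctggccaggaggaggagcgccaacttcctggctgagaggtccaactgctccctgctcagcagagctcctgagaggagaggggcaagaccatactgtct

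Of the 16 models, 15 had a window in the table, all on the plus strand, and 8 of these windows had 150 or more bases inside a replicate 1 peak. The 62-base stretch stood in 7 of the 8, namely those of Gm13283, Gm13290, Gm13289, Gm13272, Gm13279, Gm13285 and Gm13287, and its last 29 bases stood in the eighth as well. Both stretches are what these same windows share, so their presence there is a description and no evidence that they draw the peaks. Where each stretch begins is set by a window edge. The Gm13286 window starts at the first of the 29 bases, and those of Gm13272 and Gm13283 at the first of the 62. Sequence before these edges was not read, so Gm13286 may carry more of the stretch. Neither stretch was found in any other of the 32851 promoter windows of the table, on either strand. In 6 of the 7 the stretch lay wholly inside the peak of both replicates, and at Gm13283 it did not. Summits stood 53 to 221 bases downstream of the first base of the stretch in replicate 1 (median 113) and 106 to 246 bases in replicate 2 (median 197). The windows under a peak were rich in CpG, the pair of letters that DNA methylation acts on, with 16 to 29 of them in 300 bases, against a median of 7 over all promoter windows. Over all windows, 33% had 16 or more. The window of Gm13271, which had no peak, held no CpG and lacked both stretches, although it shares another run of 62 bases with that of Gm13272.

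Ifnz itself belongs to a second kind of window, one that lies upstream of the peak. The Ifnz window was identical in all 300 bases to those of Gm13276 and Gm13277 and differed from those of Gm13278 and Gm13288 in 1 base each. The windows of Ifnz, Gm13276, Gm13277 and Gm13278 touched no replicate 1 peak, and that of Gm13288 touched only a weak one absent from replicate 2 (fold 2.88). These 5 windows held 6 or 7 CpG each. The peak lay inside the gene model instead: the annotated Ifnz (chr4:88782131-88783592) is 1462 bases long, and its summit stood 855 bases before the gene's 3′ end in replicate 1 and 860 in replicate 2. For Gm13272, whose annotated model is 811 bases long, the same distances were 887 and 864 bases. Measured from the 3′ end, the peaks of these 2 models thus stood at nearly the same place, while their annotated starts differed. Over the array the distance was 686 to 1005 bases in replicate 1 (median 882) and 577 to 952 in replicate 2 (median 864), except at Gm13284 (8353 and 8184 bases) and Gm13288 (2258 and 2248), the models with the longest annotation, which the medians include.

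Identity between copies limits what any one peak can say. The windows of Gm13272, Gm13285 and Gm13287 were identical to each other in all 300 bases, as were those of Gm13290 and Gm13279, and reads that lie wholly in such a window cannot be assigned to 1 copy by their sequence. No source used here says how the authors placed reads that match several copies. The peaks of the array therefore do not count as 14 separate observations, and it cannot be told apart whether few or many copies gave the signal.

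**Figure D1:**
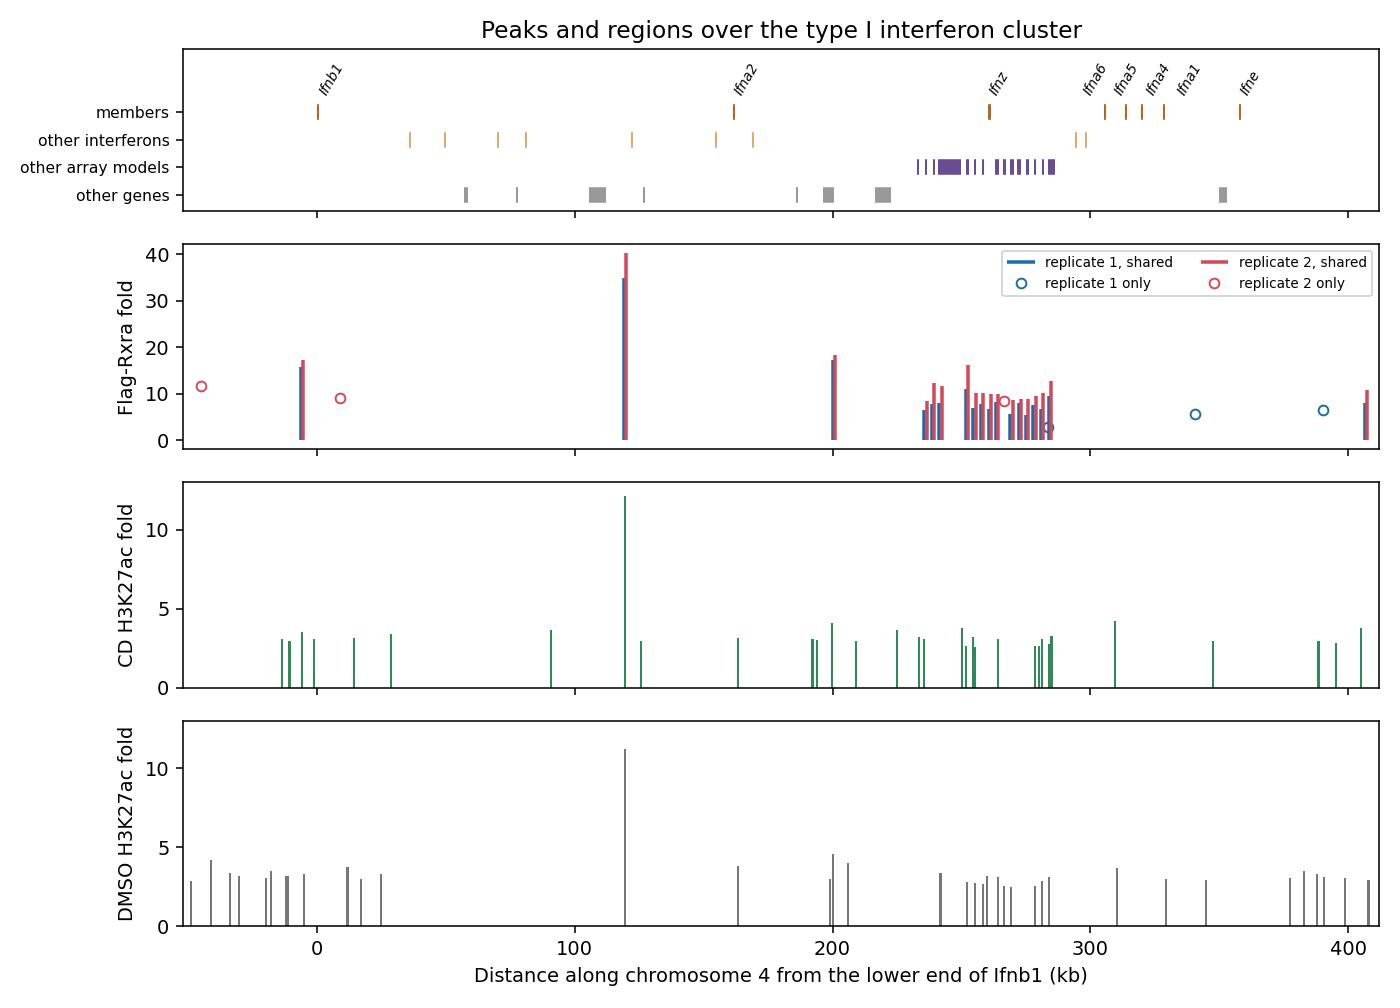
Type I interferon cluster and 50 kb on each side: gene models (top), fold of shared Flag-Rxra peaks in each replicate as lines and of peaks in 1 replicate alone as open circles, and fold of H3K27ac regions after CD and after DMSO, against the distance from Ifnb1 in kb. The 14 shared peaks of the Ifnz array form a comb between about the middle and the right of the map, while a peak between Pramel32 and Ifna13 is the tallest in all 4 lists.

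Fold at Ifnz was 6.75 in replicate 1 and 9.95 in replicate 2, with −log10 q of 68.9 and 94.8 (chr4:88782531-88782825). Fold ran highest at Gm13290, with 10.9 and 16.2 (−log10 q 115 and 160), followed by Gm13288 with 9.44 and 12.8. It ran lowest at Gm13279 in replicate 1, with 5.48, and at Gm13286 in replicate 2, with 8.32. Gm13279 has the same 300-base window as Gm13290, yet its fold in replicate 2 was 8.81. The model Gm13277, whose window is that of Ifnz, had a peak in replicate 2 alone (fold 8.52, −log10 q 72.5). All 14 shared peaks had a higher fold in replicate 2 than in replicate 1, by a median ratio of 1.46, and over all shared peaks that ratio was 1.39 and 83.2% were higher in replicate 2. Order along the array was similar in both: Spearman's rho of fold between the replicates was 0.68 and Pearson's r 0.86 over the 14 peaks, which share sequence and libraries, and rho was 0.58 over all 17623 shared peaks.

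**Figure D2:**
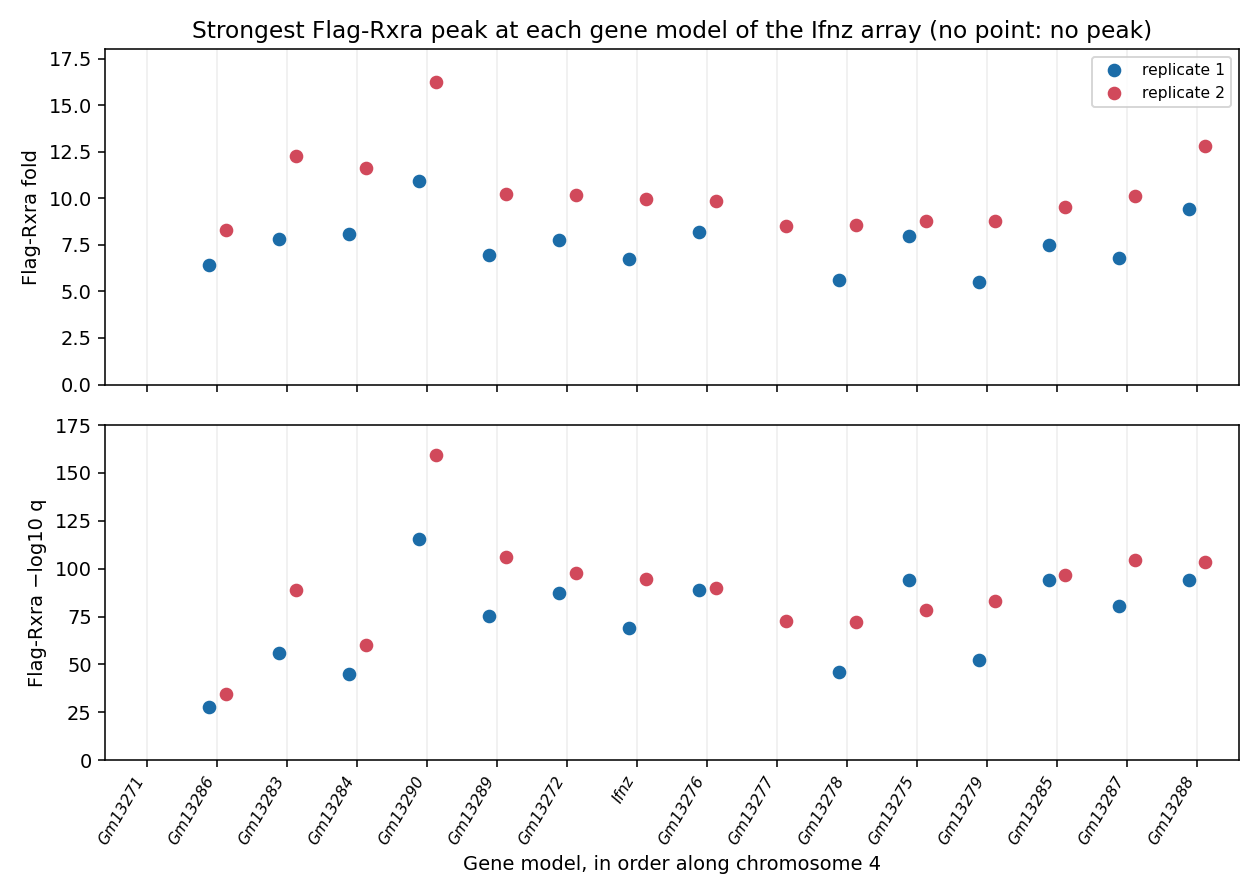
Fold (top) and −log10 q (bottom) of the strongest Flag-Rxra peak at each of the 16 gene models of the Ifnz array, in order along the chromosome, for both replicates. Gm13271 has no point, Gm13277 has a point in replicate 2 alone, and Gm13290 is the highest in both replicates.

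Most peaks of the array had a high −log10 q for their fold, and the lowest was at Gm13286, with 27.9 in replicate 1 and 34.7 in replicate 2. Their median fold of 7.63 in replicate 1 and 10.0 in replicate 2 lay below the medians of 10.3 and 14.4 over all shared peaks. Their median −log10 q of 77.8 and 92.3 lay above the medians of 30.2 and 38.8. Among the 8844 shared peaks with a replicate 1 fold in the array's own range of 5.48 to 10.9, the median −log10 q was 21.1. In replicate 2 the 8829 peaks with folds of 8.32 to 16.2 had a median of 28.8. Neither the read height of a peak nor its local background is in the lists used here. On the same scale the peak at Klhl9 and those within 50 kb outside the cluster lay among the mass of shared peaks, and the peak between Pramel32 and Ifna13 lay in its sparse upper tail.

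**Figure D3:**
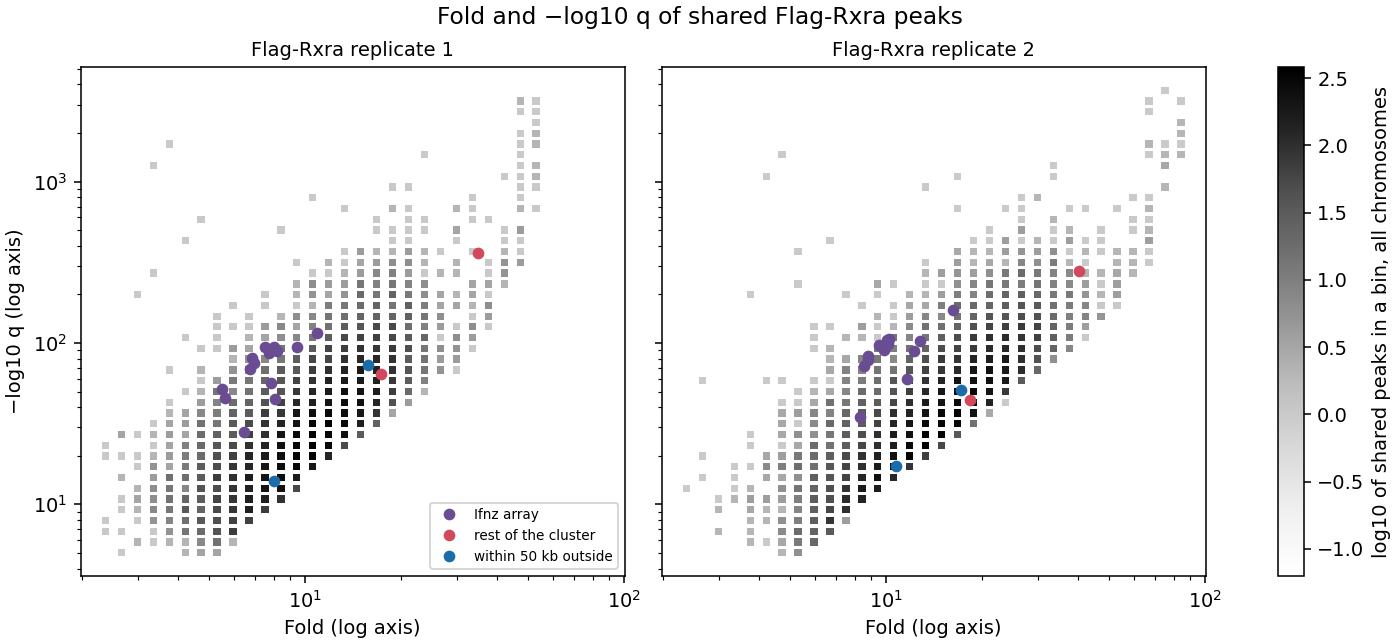
Fold against −log10 q, both on log axes, for all shared Flag-Rxra peaks (grey squares, darker where more peaks fall) and for those in the Ifnz array, in the rest of the cluster and within 50 kb outside it. Most of the array's peaks lie along the upper left edge of the grey field in both replicates, at folds of 5.48 to 16.2, while those of Gm13286 and Gm13284 lie further inside it.

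So dense a run of shared peaks was rare, though the cluster was chosen for its many peaks and its rank is a description alone. Cut into 7589 windows of the cluster's length, the chromosomes held a median of 1 and a mean of 2.32 shared peaks a window, and 56 windows (0.738%) held 16 or more, up to 31. Without the array the cluster held 2, a number that 41.6% of windows reached. Only 1 other place had 14 shared summits within 50 kb, at the assembled start of chromosome 9 (first summit at base 3000536, last at 3038165). There all 14 peaks overlapped an H3K27ac region in both lists, and −log10 q in replicate 1 ran from 12.996 to 296. Of the 32 protein-coding genes with at least as many shared peaks within 50 kb as Ifnz, 15 stood in the interferon cluster, where they count largely the same peaks of the array.

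Beyond the array, the strongest Flag-Rxra peak of the cluster lay between Pramel32, a gene of the PRAME-like family, and Ifna13 (chr4:88641104-88641311). It had folds of 35.0 and 40.3 and −log10 q of 359 and 278, and stood 2.33 kb from the end of Ifna13. The strongest H3K27ac regions of the cluster covered the same place, with a fold of 12.1 and −log10 q of 29.6 after CD and a fold of 11.2 and −log10 q of 26.7 after DMSO. No other H3K27ac region of the cluster reached a −log10 q of 5.00 in either list. A strong signal in all 4 lists, with antibodies to Flag and to H3K27ac, was thus measured at 1 place. Whether it would appear with any antibody was not tested, since no control library was used here.

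The second strongest lay at the start of Klhl9, an intervening gene that encodes an adaptor of a ubiquitin ligase, with folds of 17.4 and 18.3 (chr4:88722106-88722551). A DMSO region of −log10 q 4.12 overlapped it and no CD region did, although a CD region of −log10 q 2.48 lay inside the gene. Next in rank came a peak 5.76 kb beyond the 3′ end of Ifnb1 (chr4:88515741-88516262), just outside the cluster, with folds of 15.8 and 17.2 and −log10 q of 73.4 and 50.8. A CD H3K27ac region of fold 3.55 and −log10 q 2.005 touched it, and no DMSO region did. On the other side, the last shared peak within 50 kb of a member lay 48.4 kb from Ifne (chr4:88928635-88929106), beyond the microRNA gene Mir31, with folds of 8.001 and 10.7 and no H3K27ac region.

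Most cluster peaks were called in both replicates. Of 18 replicate 1 peaks 16 overlapped a replicate 2 peak (88.9%), and of 18 replicate 2 peaks also 16, against 62.4% and 40.5% over the whole lists. In the array, whose peaks are not separate observations, it was 14 of 15 each way, and in the rest of the cluster 2 of 3 each way. Peaks present in 1 replicate alone were few and mostly weak. Replicate 1 alone had peaks at Gm13288 (fold 2.88), 12.1 kb from Ifna1 (fold 5.52) and near Mir31 (fold 6.57). Replicate 2 alone had peaks at Gm13277, 8.20 kb from Ifnb1 (fold 8.997, −log10 q 12.2) and between Hacd4 and Ifnb1 (fold 11.6).

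The number of shared peaks within 50 kb differed widely between members and was highest next to the array. Ifnz had 14, Ifna6 9, Ifna5 7, Ifna4 5, Ifna1 3, Ifna2 2, and Ifnb1 and Ifne 1 each. All 8 members thus had at least 1, as did 68.9% of all protein-coding genes, and the members' median was 4 against 1 over all. For Ifna6, Ifna5, Ifna4 and Ifna1 every one of these peaks belonged to the array, the nearest being that of Gm13288, at 21.0, 29.3, 35.6 and 43.9 kb. Ifnb1, Ifna2 and Ifne had a peak outside the array within 50 kb, and for Ifna2 the nearest was that of Klhl9 at 38.3 kb. Among the other interferon genes, Ifna7 and Ifna11 had 11 each, Ifna16 and Ifnab 2 each, and Ifna15, Ifna9, Ifna12 and Ifna13 1 each. Ifna14 had none within 50 kb, its nearest standing 55.0 kb away, just past the limit. The members nearest to the limit on the inside were Ifne at 48.4 kb and Ifna1 at 43.9 kb. At 10 kb only Ifnz and Ifnb1 kept a shared peak, and at 5 kb only Ifnz did.

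The windows at the start of Ifnb1 and Ifna4 show textbook elements of these promoters (RefSeq, GRCm38.p6). The Ifnb1 window is on the minus strand at chr4:88522745-88523044, and that of Ifna4 on the plus strand at chr4:88841566-88841865. In the exact forms searched, these elements stood in no promoter window of the array, and the rest of the array was not searched. In capitals are matches to GGGA and TTCC with any 2 bases between, a form of the NF-κB element, and to GAAA repeated with any 2 bases between, a form of the IRF element.
Ifnb1: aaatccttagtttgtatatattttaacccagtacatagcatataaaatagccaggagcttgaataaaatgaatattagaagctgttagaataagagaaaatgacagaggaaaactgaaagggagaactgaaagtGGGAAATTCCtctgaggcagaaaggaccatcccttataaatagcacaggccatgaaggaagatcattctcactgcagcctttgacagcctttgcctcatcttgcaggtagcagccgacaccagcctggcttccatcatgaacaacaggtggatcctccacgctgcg
Ifna4: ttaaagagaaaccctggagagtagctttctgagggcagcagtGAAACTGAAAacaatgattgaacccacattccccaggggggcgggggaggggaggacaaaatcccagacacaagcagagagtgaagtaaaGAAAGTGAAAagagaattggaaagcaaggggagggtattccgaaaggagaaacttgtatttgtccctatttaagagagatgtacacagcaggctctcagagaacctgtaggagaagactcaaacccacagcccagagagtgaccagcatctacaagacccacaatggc

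The NF-κB element was found in the window of Ifnb1 and in no other of the 34 promoter windows of the cluster, and it stood in 1.47% of all 32851 windows. The IRF element stood in 3.44% of all windows and in 11 of the 16 interferon windows in the table, those of Ifna15, Ifna14, Ifna9, Ifna12, Ifna2, Ifnab, Ifna11, Ifna6, Ifna5, Ifna4 and Ifna1. The Ifnb1 window was not counted for the IRF element, because its GAAA repeats just before the capitals stand at a wider spacing than the one searched. Its absence from that list is therefore a limit of the pattern. Neither element, in these exact forms, stood in any of the 15 windows of the array. AGGTCA stood in 16.3% of all windows and in none of the 34 windows of the cluster. Direct repeats of AGGTCA with 1 to 5 bases between them stood in 0.0791% of all windows and in none of the cluster's. Both strands were searched for exact letters, and the search covers the promoter windows alone. The peaks near Ifna13 and beyond Ifnb1, the array's peaks at Ifnz, Gm13276, Gm13278, Gm13275, Gm13284 and Gm13288, and the parts of other peaks outside a window were not searched.

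H3K27ac regions over the cluster covered more bases than in most windows of its length, and which condition had more depended on the setting. CD regions, 25 in number, covered 9411 bases (2.63%) and 22 DMSO regions covered 8016 bases (2.24%), against medians of 3313 and 2362 bases in windows of the same length along the chromosomes. Of these windows, 78.8% had less CD and 78.5% less DMSO coverage. CD also covered more than DMSO in 65.7% of these windows and over the whole lists, with 37.3 against 31.1 Mb. Within the cluster the difference in favour of CD was largest in the array, where 12 CD regions covered 5023 bases and 11 DMSO regions 3769. Between Ifnab and the array CD also covered more, with 2112 bases against 1223, and in the remaining stretches of the cluster DMSO covered more. Outside the array as a whole the values were 4388 and 4247 bases. Counting only regions whose −log10 q was at least 2, the order turned, with 1481 bases after CD and 3735 after DMSO, and with the 2 lists matched in covered length it turned as well, with 7580 and 8016 bases. Of the 25 CD regions 8 overlapped a DMSO region, and of the 22 DMSO regions 8 overlapped one of CD. Over the whole lists these shares were 13.9% and 19.2%. In each list 6 of the 8 overlapping regions lay in the array, whose copies share sequence.

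Over the array all regions were weak: the highest −log10 q was 2.62 after CD and 2.52 after DMSO, at median folds of 3.10 and 2.83. Of its 14 shared Flag-Rxra peaks 7 overlapped a CD region and 8 a DMSO region, 6 both and 5 neither. Over all shared peaks 26.9% overlapped a CD region and 34.4% a DMSO region. Both were overlapped by 2715 of the 17623, and 54.1% overlapped neither. The array's peaks share sequence and are not 14 separate observations, so their shares cannot be weighed against these. The peak at Ifnz overlapped neither.

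Around single members the bases covered within 50 kb were higher after DMSO for 5 of 8 and higher after CD for 3, whereas among all protein-coding genes 59.5% had more after CD and 31.3% more after DMSO. Ifnb1 had 2553 bases after CD and 5072 after DMSO, and Ifne 1442 and 2855, the widest gaps in that direction. Ifna6 had 2784 and 3565, Ifna5 2418 and 3021, and Ifna1 2100 and 2455. Ifnz had 5589 after CD and 4001 after DMSO, while Ifna4 (2172 and 2077) and Ifna2 (2351 and 2332) had nearly equal values. Most of these directions did not hold. At Ifnz the order turned within 10 kb (1746 and 2129), within 5 kb (757 and 1034) and among regions whose −log10 q was at least 2 (1115 and 1135). Among those regions it also turned at Ifne (780 and 232), Ifna1 (744 and 562) and Ifna2 (366 and 2186), and with covered lengths matched at Ifna2 and Ifna4. Within 10 kb it also turned at Ifnb1 (856 bases after CD and 279 after DMSO), Ifna2 (193 and 505) and Ifna4 (0 and 511). Within 5 kb it turned at Ifnb1 (672 and 0) and Ifna2 (193 and 505) as well. The windows of neighbouring members overlap, so these are not 8 separate observations. The members' median difference was 479 bases less after CD, against 282 bases more over all protein-coding genes. Of all 17 interferon genes, 7 had more after CD and 10 more after DMSO.

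Close to the members, the regions called were these. Ifnb1 had a CD region of 672 bases whose near edge lay 977 bases beyond its 3′ end (fold 3.07, −log10 q 1.19), and no DMSO region within 5 kb. Ifna2 had a region 957 bases away after CD (fold 3.18, −log10 q 1.29) and 945 bases away after DMSO (fold 3.79, −log10 q 2.27). Ifna1 had a DMSO region alone, 413 bases away (fold 3.03, −log10 q 1.17). Within 1 kb of an end, 2 of the 8 members thus had a CD region and 3 a DMSO region, counting one of 490 bases from Ifnz, and over all protein-coding genes the shares were 38.3% and 35.8%, so that counts this small do not set the members apart. No region of either list overlapped the body of a member. Within 5 kb, Ifna4 and Ifne had no region in either list.

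**Figure D4:**
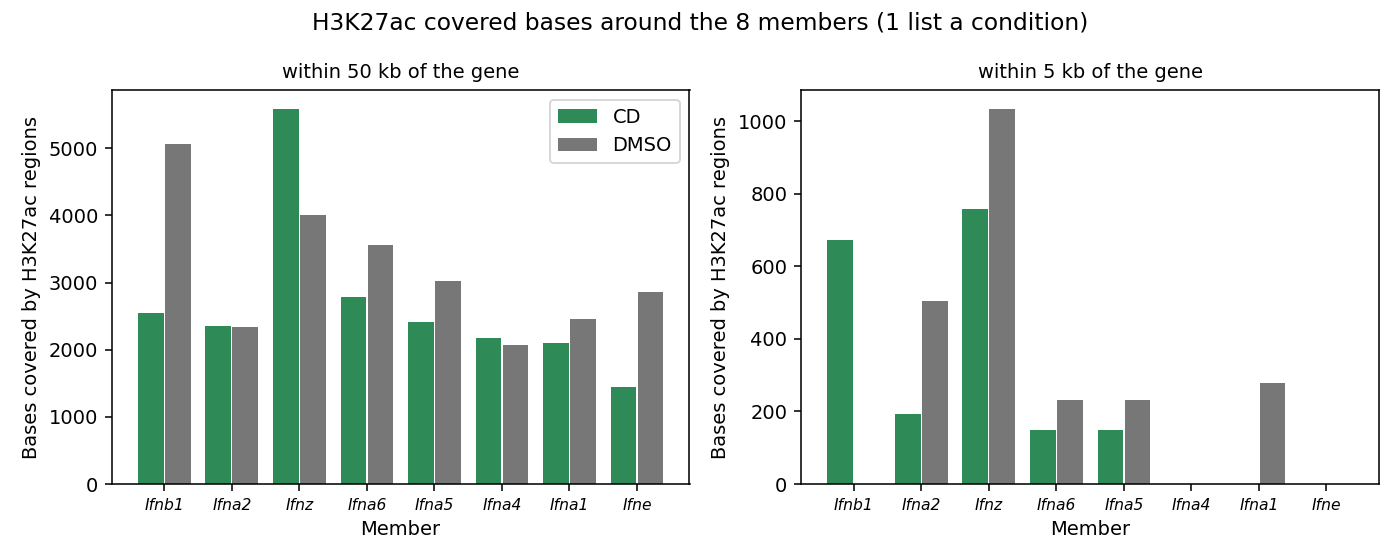
Bases covered by H3K27ac regions within 50 kb (left) and within 5 kb (right) of each of the 8 members, ordered along the chromosome, after CD and after DMSO, with 1 list a condition and so no error bars. Ifnb1 has more after DMSO within 50 kb (5072 against 2553 bases) and more after CD within 5 kb (672 against 0).

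Genes that act with the interferons were compared by the same measures. Among receptors and signalling genes 7 of 9 had a shared Flag-Rxra peak within 1 kb of an end (all protein-coding genes 32.6%), with Ifnar1 at folds of 21.2 and 27.2 and Irf9 at 18.2 and 25.4. Among sensors and kinases upstream 5 of 12 had one, with Myd88, an adaptor of Toll-like receptors, at 17.7 and 33.4, and Mavs, the adaptor of RNA sensors, at 14.8 and 28.2. Among activators of Ifnb1 the count was 5 of 11, with the coactivator Crebbp at 10.4 and 16.4. Among interferon targets it was 3 of 9, with Cxcl10, a chemokine, at 13.3 and 24.7. The interferons that stand elsewhere, Ifnk, Ifng, Ifnl2 and Ifnl3, had 0 of 4. H3K27ac bases within 50 kb were lower after CD for 7 of 9 receptor and signalling genes, 7 of 12 sensors, 8 of 11 activators and 6 of 9 targets, against 31.3% of all protein-coding genes. For the interferons elsewhere they were lower after CD for 1 of 4 and higher for 3. The lists were chosen with earlier results known, so these counts are descriptions.

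The 2 chemokine gene clusters, also of inflammatory genes, held 0 and 1 shared peaks. The mean along the chromosomes comes to 0.934 and 0.949 for spans of their lengths. The CC chemokine genes of chromosome 11 (Ccl2, Ccl7, Ccl11, Ccl12, Ccl8 and Ccl1, over 144 kb) had no shared Flag-Rxra peak between their outermost ends, and the CXC chemokine genes of chromosome 5 (Cxcl1, Cxcl2, Cxcl3, Cxcl5, Cxcl15, Pf4 and Ppbp, over 147 kb) had 1. None of these 13 genes had a shared peak within 1 kb of an end, against 32.6% of all protein-coding genes. H3K27ac bases within 50 kb were lower after CD for all 7 CXC genes, whose windows overlap, and for 2 of 6 CC genes. Among all protein-coding genes 31.3% had fewer after CD. Whether the interferon cluster differs from the chemokine clusters beyond the array was not tested.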

How the data were processed

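CUT&Tag libraries of H3K27ac (CD and DMSO, 2 samples each) and of Flag-Rxra (2 samples) were used as 4 deposited peak lists, 1 list for both replicates of an H3K27ac condition and 1 for each Flag-Rxra replicate, per the labels. MACS2 2.1.2, Bowtie2 2.2.5, deepTools 3.4.3, fastp 0.20.1 and the build mm10 are listed, per the submitters' processing notes. Whether a control library was used, how replicates were combined and how reads matching several places were treated are not given in the sources used here. The fold of each peak is a ratio deposited by the authors, and its −log10 q is also the authors' deposited value. No depth can be had from them.

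Only chromosomes 1 to 19, X and Y entered. Overlap meant 1 bp or more, and a shared peak carries replicate 1 coordinates. Gene positions came from RefSeq (GRCm38.p6), and windows reached 1 kb around each gene end or 50 kb from the gene. The peak of a gene model in the Ifnz array is the strongest whose summit comes before that model's 3′ end and after the previous one's. Scripts used Python 3.11.15, numpy 2.4.6, pandas 2.3.3 and matplotlib 3.10.9, and interval functions were tested on simulated data. No test was made: the members were chosen for their Flag-Rxra peaks, and H3K27ac had 1 list a condition. Whether samples came from separate cultures is not stated. Members and gene lists were chosen with earlier results of these data known. Named were all members, all other genes of the cluster that a result turned on, the strongest shared peaks by rank of fold, and up to 3 genes of each pathway list. The choice of array windows to print was made after their values were seen. The values of 1 gene of a pathway list are not reported here.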

Additional observations from a re-analysis of the deposited data

How the results depend on the processing

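No paired analysis was possible because no result comes from a test and each H3K27ac condition has 1 list for both replicates, which also could not be left out in turn. The count of 16 shared Flag-Rxra peaks in the cluster ran from 13 to 18 over stricter −log10 q, stricter overlap, summits within 100 bp, the widened cluster and the removal of peaks in the strongest H3K27ac regions, and was 18 with either replicate alone. Members with a shared peak within 50 kb, 8 in all, numbered 7 or 8 under the same settings, 2 within 10 kb and 1 within 5 kb. Without the Ifnz array, a setting chosen after seeing the data, the cluster held 2 shared peaks and 3 members had one, and the CD minus DMSO difference in H3K27ac covered bases was 141. That difference, 1395 bases, was -2057 with the cluster widened by 50 kb, -2254 counting regions whose −log10 q was at least 2, -436 with covered lengths matched and 233 with bases weighted by fold. Widening the cluster adds flanks where DMSO covers more. The −log10 q limit cut both lists, to 1481 bases after CD and 3735 after DMSO. Matching covered lengths changed CD alone, to 7580 bases against 8016. Why the order turned was not tested. Members with more covered bases after CD, 3 in all, were 1 within 10 kb, 1 within 5 kb and 1 with covered lengths matched. Depth is unknown, and in the H3K27ac lists unequal depth and unequal conditions cannot be told apart.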
